A study of Mus musculus with 15 samples.

Results

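The Notch pathway and Deltex genes described here were Notch1, Notch2, Notch4, Jag1, Rbpj, Hes1, Dtx3 and Dtx4, 8 of the 19456 genes in the deposited count table, and all 8 passed the filter on low counts. They were chosen by gene symbol from genes whose levels in the same 4 populations were already known, so their levels and fold changes are given as a description with no test. RNA sequencing was performed on 15 libraries of cells sorted from adult male wild type C57BL/6 mice, 8 to 10 weeks old, with no transgene and no treatment. Ly6Chi monocytes came from peripheral blood (n = 3). The macrophages came from the small intestine as a subset without either marker, Tim-4-CD4- (n = 4), a subset with CD4 alone, Tim-4-CD4+ (n = 4), and a subset with both, Tim-4+CD4+ (n = 4). Where 3 values are given for the 3 subsets, they stand in this order. Each library was made from the pooled cells of 3 mice, except for monocyte replicate 2, which came from 4 mice. The macrophages came from 4 independent sorts, so libraries of different subsets may share a sort and its mice. The macrophages were sorted as live Lin-CD45+CD11b+ cells that were CD64+, Ly6C- and MHCII+, a gate that should leave out endothelial and mesenchymal cells, and Tim-4 (Timd4) and CD4 (Cd4) then defined the subsets. Since blood cells and digested gut tissue were compared, tissue of origin, tissue digestion and cell type cannot be told apart in any comparison with monocytes.

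Notch receptors are surface proteins that are cut when a ligand of the Delta or Jagged family on a neighboring cell binds them. The cut is made first by an ADAM protease and then by gamma-secretase, which frees the intracellular domain to enter the nucleus. There it joins the DNA-binding protein RBPJ (Rbpj) and Mastermind coactivators (Maml1, Maml2, Maml3) at target genes such as Hes1, and without it RBPJ sits with corepressors such as SPEN and TLE proteins. Deltex proteins are RING-type ubiquitin ligases that were first linked to Notch through their binding to the receptor and its sorting in the cell. In myeloid cells, Notch2 and Rbpj are known for their roles in monocyte fate and in intestinal dendritic cells, and signals from endothelial Delta ligands are known to shape resident macrophages in the liver.

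Library totals ranged from 39388763 to 151510641 counts, with a median of 63249039. Levels are given as CPM, the count scaled to the size of the library, after normalization by the trimmed mean of M values (TMM). The labels were checked against the markers of each population: Timd4 was at 337 to 390 CPM in Tim-4+CD4+ libraries and at 4.47 CPM or lower in every other library, and Cd4 was at 484 to 598 CPM in Tim-4-CD4+ libraries and at 752 to 924 CPM in Tim-4+CD4+ libraries. The 8 macrophage markers summed to 13410 to 18690 CPM in macrophages and to 3810 to 4156 CPM in monocytes, whereas the 6 monocyte markers summed to 9121 to 11980 CPM in monocytes and to 602.9 to 876.6 CPM in Tim-4-CD4- macrophages. Markers of several other cell types, summed over each list, were higher in macrophage than in monocyte libraries: B and plasma cell markers (7 genes) at 240.7 to 429.5 CPM against 8.48 to 10.6 CPM, epithelial markers (12 genes) at 10.2 to 27.3 CPM against 0.506 to 1.75 CPM, T cell markers (7 genes) at 3.52 to 13.6 CPM against 1.32 to 3.34 CPM, and enteric glia and neuron markers (6 genes) at 1.08 to 7.57 CPM against 0.0354 to 0.149 CPM. Of 7 granulocyte markers 3 were in the table, at 5.04 to 16.7 CPM against 1.19 to 2.67 CPM. A single library stood apart from its group. In Tim-4+CD4+ replicate 1, genes with long exons (at least 6.76 kb) were lower relative to the other 3 libraries than genes with short exons (at most 2.72 kb), by a difference in median log2 deviation of -0.67, whereas this difference lay between -0.22 and 0.27 in the other 14 libraries. Notch1, Rbpj and Notch2, with 14.23, 12.75 and 10.78 kb of exons, were lower in that library than in the other Tim-4+CD4+ libraries, and Dtx3, with 2.57 kb, was higher. Results for the 8 genes in Tim-4+CD4+ macrophages are therefore given with and without it where it moved them.

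**Figure D1:**
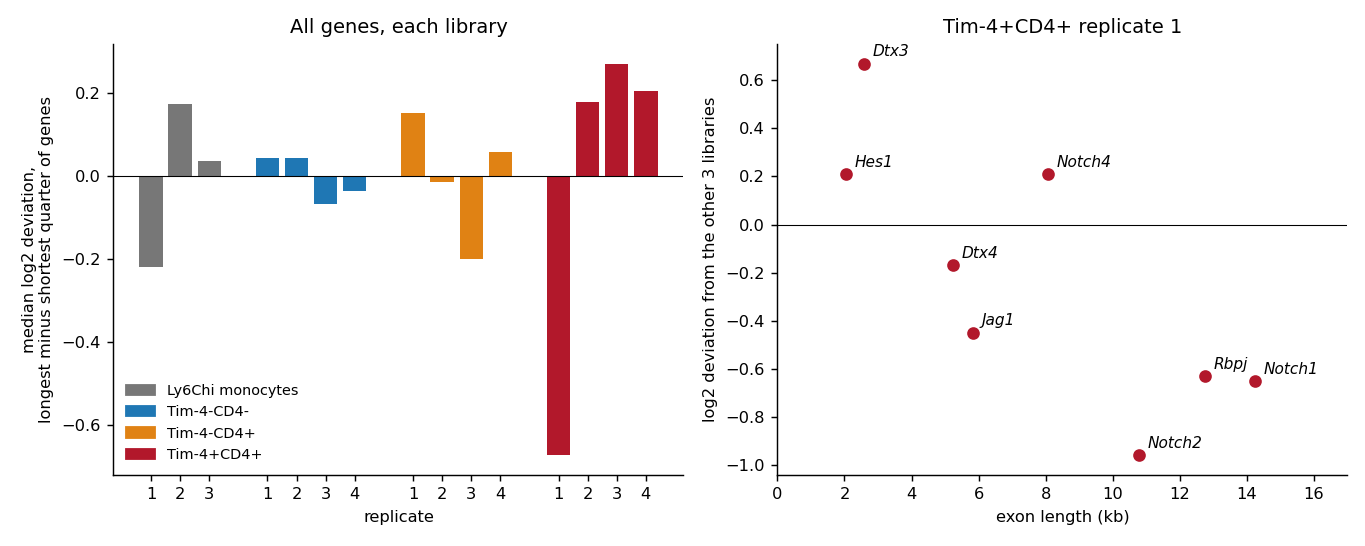
Deviation by exon length. The left panel shows, for each of the 15 libraries, the median log2 deviation from the other libraries of its population in genes with at least 6.76 kb of exons minus that in genes with at most 2.72 kb (11789 genes in all), and Tim-4+CD4+ replicate 1 is at -0.67; the right panel plots the log2 deviation of the 8 genes in that library against exon length in kb, from -0.96 for Notch2 to 0.67 for Dtx3.

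The promoters were read for the letters of the RBPJ motif, since RBPJ is the factor through which Notch receptors act. RefSeq promoter windows, which hold 250 bases before and 50 bases after an annotated start, were matched for Notch1, Notch2, Notch4, Jag1 and Rbpj, in 6 windows. None of the 6 held GTGGGAA on either strand, compared with 6.38% of all 32851 windows. The shorter core TGGGAA, which lies within GTGGGAA, was in both Rbpj windows and in 25.6% of all windows. Of the 70 windows of other Notch pathway genes, 7 held GTGGGAA, those of Lfng, Hey2, Aph1a, Psen2, Spen, Hes5 and Hes7. Lfng, Hey2 and Aph1a were called between macrophage subsets, whereas Psen2, Spen and Hes7 were not and Hes5 was not tested. In the comparisons between subsets, 10.1%, 23.1% and 3.41% of all genes were called. The Hey2 and Aph1a calls were lost in most alternatives, and no link between the motif and the calls is read from these genes. For Rbpj and, as an example of the full motif, for Lfng, the longest stretch before the start that lies outside annotated exons is shown. For Hey2, a second example, only a cut of 60 bases around the motif is shown, also outside annotated exons. Sequences run 5′ to 3′ on the strand of the gene (GRCm38.p6), with the motif, its core or a reverse complement of them in capitals.
Rbpj, chr5:53590096-53590213, plus strand: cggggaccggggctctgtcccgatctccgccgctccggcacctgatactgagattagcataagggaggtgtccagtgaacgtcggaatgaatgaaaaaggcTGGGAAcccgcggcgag
Lfng, chr5:140607091-140607319, plus strand: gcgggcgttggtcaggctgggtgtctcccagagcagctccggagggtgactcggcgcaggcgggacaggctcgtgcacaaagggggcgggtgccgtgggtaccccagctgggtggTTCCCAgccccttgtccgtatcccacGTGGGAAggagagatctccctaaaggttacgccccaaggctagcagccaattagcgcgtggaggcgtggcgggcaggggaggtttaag
Hey2, chr10:30842954-30843013, minus strand: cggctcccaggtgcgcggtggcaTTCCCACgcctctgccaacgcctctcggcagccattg
The Rbpj stretch lies in an intron of longer Rbpj transcripts, with the core 149 bases before the start of the window's transcript. In Lfng, GTGGGAA begins 109 bases before the start. These letters are a description of the sequence, and binding was not measured.

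Monocytes and macrophages differed in which of the 8 genes was most abundant. Because longer transcripts yield more counts, genes were compared with each other only as CPM per kb of exon. In monocytes, Notch2 was the highest of the 8 at 57.0 ± 4.87 CPM per kb (SD, n = 3), followed by Notch1 at 11.2 ± 1.09, and Hes1, Dtx3 and Rbpj lay between 7.57 and 8.52 with neighboring ranges that overlapped. In all 3 macrophage subsets, mean Hes1 and Dtx4 were the highest on this scale. Hes1 was at 100.2 ± 18.1, 134 ± 19.8 and 135 ± 14.3 CPM per kb in the 3 subsets (SD, n = 4 each), and Dtx4 was at 55.3 ± 3.07, 64.0 ± 4.26 and 61.6 ± 4.96. The ranges of Hes1 and Dtx4 did not overlap in any subset. Those of Dtx4 and Dtx3 overlapped in Tim-4+CD4+ macrophages, where Dtx3 exceeded Dtx4 in replicate 1. Those of Notch1 and Notch2 overlapped in all 3 subsets, and Notch4 and Jag1 were the lowest of the 8 in every population, at most 0.804 CPM per kb on average.

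**Figure D2:**
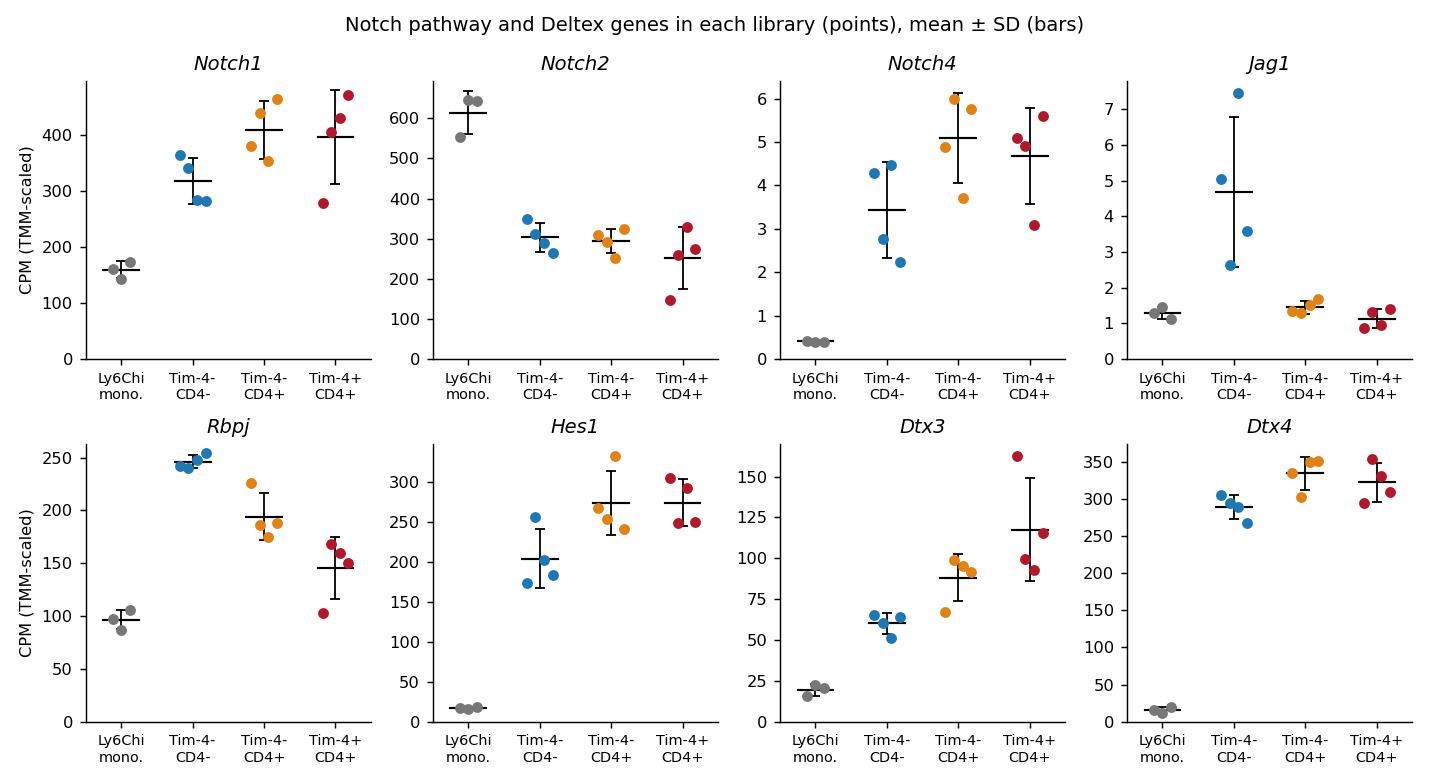
Levels of the 8 genes in each of the 15 libraries. Each panel plots TMM-scaled CPM on a linear axis from 0 for 1 gene, points are libraries, horizontal lines are means and bars are SD (n = 3 monocyte libraries and n = 4 libraries per macrophage subset); Notch2 is highest in monocytes, Jag1 in Tim-4-CD4- macrophages, and Rbpj steps down across the 3 subsets.

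Among the receptors, Notch2 was lower and Notch1 higher in macrophages than in monocytes. Notch1 (ENSMUSG00000026923.15, chr2:26457903-26516663, minus strand, GRCm38) was at 161, 143 and 174 CPM in the monocyte libraries, at 364, 342, 284 and 282 CPM in the subset without either marker, at 381, 440.0, 353 and 465 CPM in the Tim-4-CD4+ subset, and at 278, 406, 431 and 472 CPM among Tim-4+CD4+ libraries. Every macrophage library was above every monocyte library, and the 3 subsets overlapped. The log2 fold changes over monocytes were 1.00 ± 0.16, 1.36 ± 0.16 and 1.31 ± 0.16 (SE) in the 3 subsets, and the last was 1.47 without Tim-4+CD4+ replicate 1. Tim-4+CD4+ replicate 1 was the lowest Tim-4+CD4+ library for Notch1, and without it the log2 difference of Tim-4+CD4+ from the CD4- subset went from 0.32 to 0.46 and these 2 subsets no longer overlapped. Its log2 difference from Tim-4-CD4+ macrophages went from -0.05 to 0.09.

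Notch2 (ENSMUSG00000027878.11, chr3:98013527-98150361, plus strand) was at 554, 646 and 643 CPM in monocytes. In macrophages it was at 349.6, 312, 288 and 264 CPM in the subset without either marker, at 308, 291, 252 and 324 CPM in the Tim-4-CD4+ subset, and at 147, 259, 329.6 and 274 CPM among Tim-4+CD4+ libraries. Every macrophage library was below every monocyte library, with log2 fold changes of -1.02 ± 0.19, -1.06 ± 0.19 and -1.28 ± 0.19 (SE). The lowest value of all, 147 CPM, was that of Tim-4+CD4+ replicate 1, and without it the last of these fold changes was -1.08. Between subsets, the log2 differences in Notch2 lay between -0.27 and -0.05. Without that library the difference of Tim-4+CD4+ from the CD4- subset went from -0.27 to -0.08, and that from the Tim-4-CD4+ subset from -0.22 to -0.03.

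The ratio of Notch1 to Notch2 CPM within a library does not depend on scaling between libraries. It was 0.261 ± 0.0356 (SD, n = 3) in monocytes, and 1.05 ± 0.0467, 1.40 ± 0.116 and 1.62 ± 0.248 in the 3 subsets (n = 4 each). The highest monocyte ratio was 0.291 and the lowest macrophage ratio was 0.987. Tim-4-CD4- libraries, at 0.987 to 1.10, lay below all 8 CD4+ libraries, which ran from 1.24 to 1.89 and overlapped between the 2 CD4+ subsets. The highest ratio, 1.89, was again in Tim-4+CD4+ replicate 1, and the other 3 Tim-4+CD4+ libraries were at 1.31 to 1.72.

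Notch4, a receptor known mainly from endothelium, was the least abundant receptor of the 8 genes. Notch4 (ENSMUSG00000015468.14, chr17:34564268-34588503, plus strand) was at 0.425, 0.399 and 0.390 CPM in monocytes, which were 21 to 60 counts, at 4.29, 2.76, 4.46 and 2.23 CPM in the subset without either marker, at 4.89, 5.99, 3.71 and 5.75 CPM in the Tim-4-CD4+ subset, and at 5.10, 4.91, 3.09 and 5.61 CPM among Tim-4+CD4+ libraries. Every macrophage library was above the monocytes and the subsets overlapped. The log2 fold changes over monocytes were 3.08 ± 0.30, 3.64 ± 0.31 and 3.52 ± 0.30 (SE). Endothelial markers moved with this contrast: Plvap was at 3.15 to 25.3 CPM in macrophage libraries and at most 0.0743 CPM in monocytes, and Tek, Emcn, Cldn5 and Sox17 had no counts in monocytes. Summed over the 12 endothelial markers, the libraries were at 27.4 to 76.6, 24.2 to 44.8 and 60.0 to 91.9 CPM in the 3 subsets. In monocytes the sum was 52.9 to 88.3 CPM, of which Flt1 gave 52.0 to 87.0. The highest Notch4 level, in Tim-4-CD4+ replicate 2, went with an endothelial sum of 28.3 CPM, and the highest endothelial sum, in Tim-4+CD4+ replicate 1, went with a Notch4 level of 5.10 CPM. The part of these markers in the Notch4 difference was not tested. In bulk samples, fewer cells of a type and less RNA per cell cannot be told apart.

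The ligand Jag1 was highest in Tim-4-CD4- macrophages. Jag1 (ENSMUSG00000027276.7, chr2:137081456-137116644, minus strand) was at 1.30, 1.47 and 1.13 CPM in monocytes, at 5.04, 2.65, 7.46 and 3.60 CPM in the subset without either marker, at 1.34, 1.29, 1.51 and 1.69 CPM in the Tim-4-CD4+ subset, and at 0.876, 1.32, 0.949 and 1.39 CPM among Tim-4+CD4+ libraries. Tim-4-CD4- libraries were above all other libraries, whereas monocytes and both CD4+ subsets overlapped. From the CD4- subset, the log2 fold change was -1.68 ± 0.28 in the Tim-4-CD4+ subset and -2.05 ± 0.29 (SE) where both markers were present, and the CD4- subset was 1.84 ± 0.31 above monocytes. These values rest on 51 to 346 counts per library.

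The Tim-4-CD4- libraries differed among themselves in Jag1, relative to their mean, more than in any other of the 8 genes, and some of the dendritic cell markers varied with it. Replicate 3 had the highest Jag1, 7.46 CPM, and also the highest level among all 12 macrophage libraries of Flt3, Ccr7, Itgae and Zbtb46, at 17.9, 14.3, 24.7 and 5.30 CPM. The other 3 markers of the list did not peak there: within the subset, Clec9a was lowest in replicate 3 at 24.7 CPM, Xcr1 was highest in replicate 4 at 4.22 CPM, and Dpp4 was highest in replicate 1 at 114 CPM. Replicate 2 had the lowest Jag1 of the subset, 2.65 CPM, with the lowest Flt3, Ccr7, Xcr1 and Dpp4, whereas Itgae and Zbtb46 were lowest in replicate 4, at 3.21 and 0.932 CPM. In both CD4+ subsets, Flt3 was at most 1.61 CPM and Ccr7 at most 3.72 CPM. Over the whole list of 7 dendritic cell markers, all of which had counts in every population, the summed level was 121.8 to 202.7, 109.7 to 159.1 and 105.8 to 140.3 CPM in the 3 subsets and 78.0 to 103.2 CPM in monocyte libraries, where Flt3 was at 21.9 to 33.5 CPM. Without Tim-4-CD4- replicate 3, the log2 fold changes of the 2 CD4+ subsets from it were -1.36 and -1.72. The part of dendritic cell RNA in the Jag1 level was not tested.

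**Figure D3:**
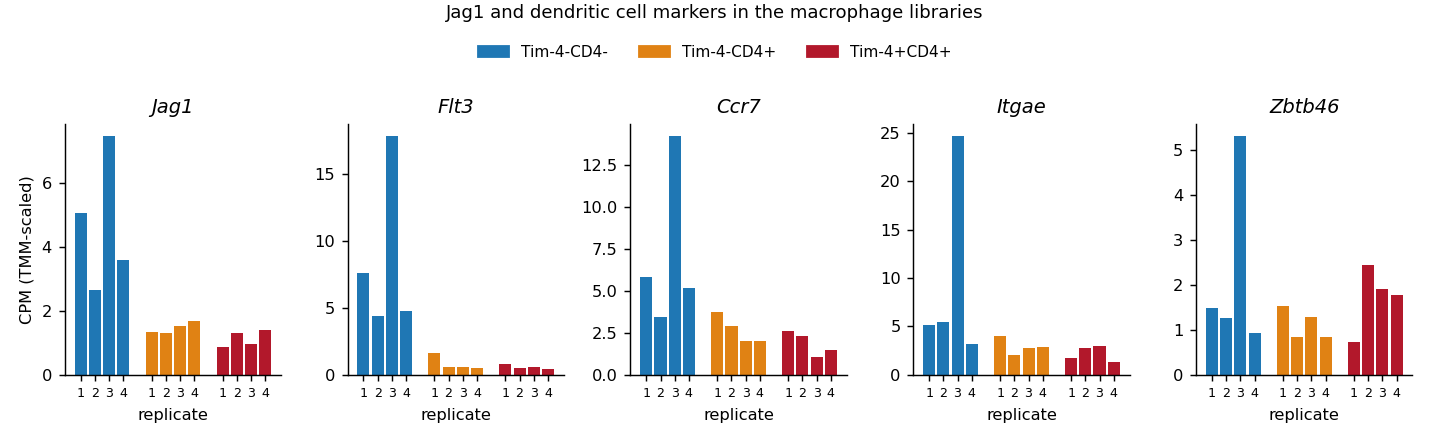
Jag1 and the 4 of 7 dendritic cell markers that peaked in the same library, in the 12 macrophage libraries. Each bar is the TMM-scaled CPM of 1 library, by replicate number within each subset, each panel on its own linear axis from 0; Tim-4-CD4- replicate 3 is the highest bar in all 5 panels, with Jag1 at 7.46 CPM and Itgae at 24.7 CPM.

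Rbpj, the DNA-binding partner of all Notch receptors, was higher in macrophages than in monocytes and stepped down across the subsets. Rbpj (ENSMUSG00000039191.12, chr5:53466152-53657362, plus strand) was at 97.4, 86.9 and 105 CPM in monocytes, at 242, 240.0, 247 and 255 CPM in the subset without either marker, at 226, 187, 175 and 188 CPM in the Tim-4-CD4+ subset, and at 103, 168, 160.1 and 150.4 CPM among Tim-4+CD4+ libraries. The 3 subsets did not overlap with each other, and Rbpj was the 1 gene of the 8 for which this held. Of the macrophage libraries, Tim-4+CD4+ replicate 1 alone lay within the monocyte range. The log2 fold changes over monocytes were 1.35 ± 0.14, 1.01 ± 0.14 and 0.59 ± 0.14 (SE) in the 3 subsets, and the last was 0.74 without Tim-4+CD4+ replicate 1. The 2 CD4+ subsets were at -0.34 ± 0.13 and -0.76 ± 0.13 from the CD4- subset, and the difference between them was -0.41 ± 0.13. Without Tim-4+CD4+ replicate 1, the last 2 values were -0.62 and -0.28, and the subsets still did not overlap. The pseudogene Rbpj-ps3, a near copy of Rbpj, had 27 to 173 counts per library, at most 0.996% of the Rbpj count, and how the authors' counting split reads between the 2 is uncertain. The paralog Rbpjl had at most 8 counts in a library.

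Hes1, a transcriptional repressor and a classical target of Notch receptors, was higher in every macrophage library than in monocytes. Hes1 (ENSMUSG00000022528.7, chr16:30064384-30067796, plus strand) was at 17.4, 16.5 and 18.2 CPM in monocytes, at 174, 257, 202 and 184 CPM in the subset without either marker, at 268, 254, 332 and 242 CPM in the Tim-4-CD4+ subset, and at 305, 249, 293 and 250.2 CPM among Tim-4+CD4+ libraries. Between subsets the libraries overlapped, since Tim-4-CD4- replicate 2 reached the range of both CD4+ subsets. The log2 fold changes over monocytes were 3.56 ± 0.16, 3.98 ± 0.16 and 3.98 ± 0.16 (SE), and both CD4+ subsets were above Tim-4-CD4- macrophages by a log2 difference of 0.42 to 0.43 with an SE of 0.13. Genes induced by tissue dissociation moved with the contrast to monocytes. The 11 dissociation genes, among them Fos and Egr1, summed to 950 to 1204 CPM in monocytes and to 27390 to 39940 CPM in macrophages. Within Tim-4-CD4- macrophages, the library with the highest Hes1, replicate 2, also had the highest sum of dissociation genes, 38330 CPM, and within Tim-4-CD4+ macrophages replicate 3 was highest in both, with a sum of 39940 CPM. Among Tim-4+CD4+ libraries, Hes1 was highest in replicate 1, with a sum of 30140 CPM, and the sum was highest in replicate 3. Between subsets, the dissociation sums ran from 27390 to 32500 CPM among Tim-4+CD4+ libraries and from 31580 to 38330 CPM in the CD4- subset, while mean Hes1 was 274 ± 29.1 CPM in the former and 204 ± 36.9 CPM in the latter (SD, n = 4 each). The part of dissociation in the Hes1 level was not tested.

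Both Deltex genes were higher in macrophages, and Dtx4 had the largest fold change over monocytes of the 8 genes, 18.5-fold, 21.4-fold and 20.6-fold in the 3 subsets. Dtx4 (ENSMUSG00000039982.7, chr19:12466338-12501454, minus strand) was at 16.3, 11.2 and 19.4 CPM in monocytes, at 305, 295, 288 and 267 CPM in the subset without either marker, at 335, 303, 349 and 351 CPM in the Tim-4-CD4+ subset, and at 295, 354, 330.5 and 309 CPM among Tim-4+CD4+ libraries. The subsets overlapped in each pair, with log2 fold changes over monocytes of 4.21 ± 0.16, 4.42 ± 0.16 and 4.37 ± 0.16 (SE). Without Tim-4+CD4+ replicate 1, that subset no longer overlapped with the CD4- subset in Dtx4, at a log2 difference of 0.20 compared with 0.16 with it.

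Dtx3, in contrast, also differed between subsets. Dtx3 (ENSMUSG00000040415.15, chr10:127190378-127195728, minus strand) was at 15.6, 22.6 and 20.6 CPM in monocytes, at 65.4, 60.3, 51.1 and 64.1 CPM in the subset without either marker, at 67.4, 99, 95.1 and 91.3 CPM in the Tim-4-CD4+ subset, and at 163, 99.6, 92.5 and 115 CPM among Tim-4+CD4+ libraries. Tim-4-CD4- libraries were below both CD4+ subsets with no overlap, and the CD4+ subsets overlapped with each other. The log2 fold changes over monocytes were 1.62 ± 0.19, 2.17 ± 0.20 and 2.58 ± 0.20 (SE), and over the CD4- subset they were 0.55 ± 0.17 and 0.96 ± 0.17 in the 2 CD4+ subsets. Tim-4+CD4+ replicate 1 gave the highest value, 163 CPM. Without it, the Tim-4+CD4+ mean was 102 ± 11.6 CPM (SD, n = 3), the difference from the CD4- subset was 0.77, and that between the CD4+ subsets went from 0.41 to 0.22. Dtx3 overlaps a noncoding gene on the opposite strand, F420014N23Rik, which had 0 to 6 counts per library.

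Across the 8 genes, the libraries of the populations compared did not overlap for 8, 7 and 6 genes between monocytes and each of the 3 subsets, and 67.6%, 70.1% and 68.7% of all 15802 genes tested did the same. Between subsets, 3 genes (Jag1, Rbpj and Dtx3) did not overlap between the CD4- subset and either CD4+ subset, against 19.1% and 26.4% of all genes. Without Tim-4+CD4+ replicate 1, Notch1 and Dtx4 joined them in the comparison of the Tim-4+ with the CD4- subset, and Rbpj no longer overlapped between the Tim-4+ subset and monocytes. Between the CD4+ subsets this held for 1 gene, Rbpj, against 9.63%. At an adjusted p under 0.05, the quasi-likelihood test in edgeR called 8, 7 and 7 of the 8 in the comparisons of the 3 subsets with monocytes, where 65.4%, 69.8% and 70.9% of all genes were called. It called 2, 4 and 0 of the 8 in the comparisons of the Tim-4-CD4+ subset with the CD4- subset, of the Tim-4+ subset with the CD4- subset, and between the CD4+ subsets, where 10.1%, 23.1% and 3.41% of all genes were called. Over the alternatives these 3 counts were 1 to 5, 3 to 5 and 0 to 1, and both counts of 5 were reached without Tim-4+CD4+ replicate 1, the first also when only the populations compared were fitted. Since the 8 genes were chosen with these contrasts in view, nothing is read from these counts. The comparisons with monocytes share the same 3 monocyte libraries, and those between subsets share macrophage libraries.

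**Figure D4:**
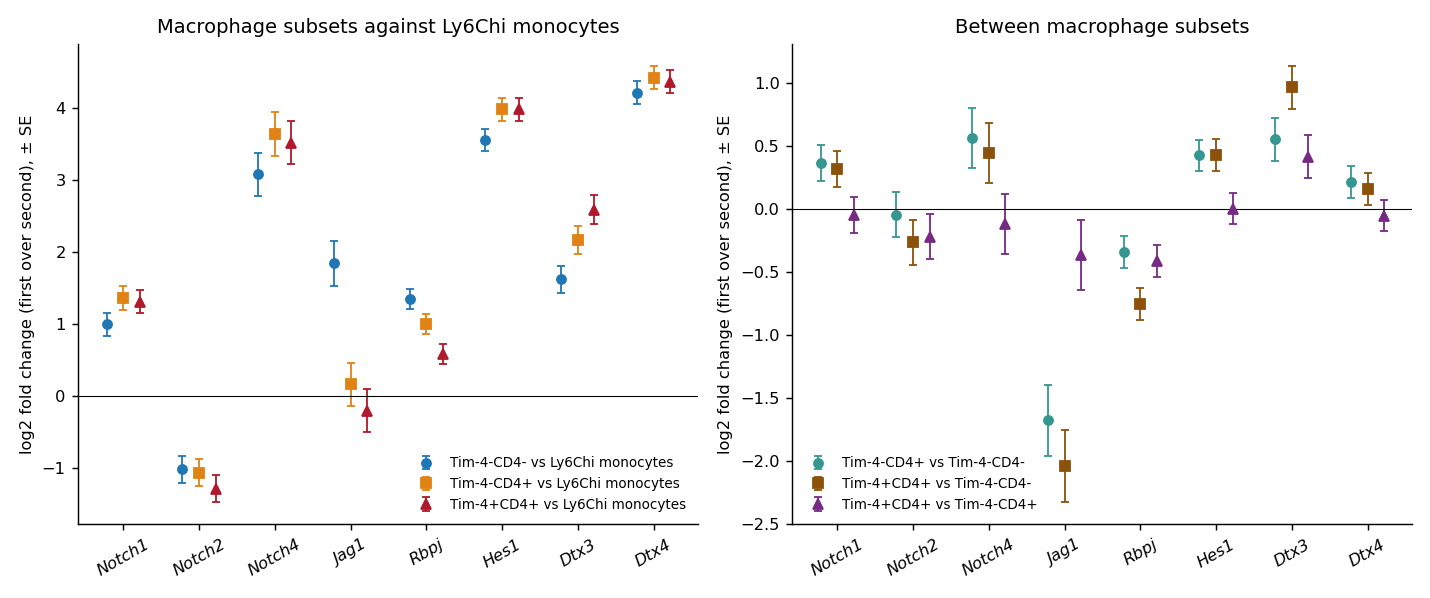
Log2 fold changes of the 8 genes. Points are log2 fold changes of the first population over the second and bars are SE from the fit over all 15 libraries, against Ly6Chi monocytes on the left and between macrophage subsets on the right; Dtx4, Hes1 and Notch4 are the highest on the left at 3.08 to 4.42, Notch2 is the 1 gene below 0 in all 3, and Jag1 is lowest on the right at -2.05.

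The genes whose levels varied most like each member over the 12 macrophage libraries were also named, by Pearson correlation of log2 CPM among 11790 genes. Both genes of a pair were read in the same libraries, and r mixes differences between subsets with variation within them, so r is a description. Rbpj varied most like Pip4k2a (r = 0.99), Cdc14a and Hivep2, and Dtx3 most like Csf2ra (r = 0.98), the alpha chain of the GM-CSF receptor, Gstm1 and Cdk16. Jag1 varied most like Slc2a3 (r = 0.97), a glucose transporter, E2f2 and Coro2a. Notch1 was most like Znrf3 (r = 0.96), Adcy7 and Soga1. Notch2 was most like Tet3 (r = 0.99), Kmt2a and Gpatch8, and its r with Tet3 was 0.95 over the 11 libraries without Tim-4+CD4+ replicate 1. Hes1 was most like Hcar2 (r = 0.93), Zfp566 and Mtif3. Dtx4 was most like Irs2 (r = 0.91), Pfkfb3 and Nhlrc3, and Notch4 most like Ptpn21 (r = 0.89), Cyb5rl and Gin1. No member was among the 3 genes most like another.

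The other genes of the pathway were examined as a list of 65 genes, of which 59 passed the filter on low counts and were tested. The list was chosen with earlier results of these data known. Dll3, Dlk1, Dlk2, Hes2, Hes3 and Hes5 were not tested. Compared with monocytes, Tim-4-CD4- macrophages differed in 42 of the 59 genes, 17 higher and 25 lower, where 37.3% of all genes were higher and 28.1% lower. In Tim-4-CD4+ macrophages 41 genes were called, 17 higher and 24 lower, where 39.1% and 30.7% of all genes were. In Tim-4+CD4+ macrophages 44 genes were called, 19 higher and 25 lower, where 39.5% and 31.3% of all genes were. The median log2 fold change of the 59 genes was -0.12, -0.16 and -0.22 in these comparisons, and that of all genes was 0.08, 0.11 and 0.10.

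Of the 4 other ligands tested, 2, 2 and 3 rose in the 3 subsets and none fell. Of all genes, 37.3%, 39.1% and 39.5% rose and 28.1%, 30.7% and 31.3% fell. Jag2, the other Jagged ligand, rose from at most 0.156 CPM in monocytes to 10.9 to 20.9 CPM in macrophages, with log2 fold changes of 7.30 ± 0.32, 7.28 ± 0.32 and 7.17 ± 0.32 (SE; adjusted p = 4.0e-12, 3.4e-12 and 3.5e-12) in the 3 subsets. Jag2 was not called between any subsets. Dll4, a Delta ligand known from endothelium, rose to 0.285 to 1.15 CPM from at most 0.0389 CPM (log2 fold change 4.91 to 5.32). Neurl1a, a ubiquitin ligase for ligands, rose by 6.49 to 6.72, to 10.9 to 16.6 CPM, whereas its relative Neurl1b fell by 0.87 ± 0.21, 1.27 ± 0.21 and 1.86 ± 0.22 on the log2 scale. Notch3, the receptor of pericytes and vascular smooth muscle, had no counts in the 3 monocyte libraries and 0.0366 to 2.99 CPM in macrophages. Against a floor of 3 counts over the monocyte libraries, its mean level was at least 74.1-fold, at least 51.8-fold and at least 163-fold higher in the 3 subsets. These bounds hold for the means only and leave out the spread between macrophage libraries. Tim-4-CD4+ replicate 1 was at 0.0366 CPM, against 0.652 to 0.716 CPM in the rest of its subset. Tim-4+CD4+ replicate 4 was at 2.99 CPM, against 1.13 to 1.24 CPM in the rest of its subset. The sum of the 10 mesenchymal markers moved with it, at 10.8 to 14.2 CPM in monocytes and 78.9 to 179.5 CPM in macrophages. Not every marker did: Acta2 overlapped between monocytes and each of the 3 subsets, and Pdgfrb between monocytes and the CD4- subset. All other markers of the list, among them Col1a1, Col3a1, Myh11 and Des, were higher in every macrophage library than in monocytes. The part of these markers in the Notch3 level was not tested.

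Receptor processing genes moved both ways. Among the enzymes that glycosylate the receptors, the Fringe genes Lfng and Mfng fell in all 3 subsets, Lfng by 0.68 to 1.43 and Mfng by 0.59 to 0.88 on the log2 scale, and Eogt rose by 1.88 to 2.24 and Pofut1 by 0.40 to 0.50. Of the 10 proteolysis genes, 5, 5 and 4 fell and 1, 2 and 1 rose in the 3 subsets. Of all genes, 28.1%, 30.7% and 31.3% fell and 37.3%, 39.1% and 39.5% rose. Furin, the convertase that matures the receptors, fell by 0.80 to 1.25, and Adam10 by 0.62 to 0.94. The largest fall in Adam10 was in Tim-4+CD4+ macrophages, where replicate 1 was at 82.1 CPM and the other libraries at 124 to 136 CPM. Aph1c, a gamma-secretase subunit, rose by 0.53 to 0.88. Nedd4, a ubiquitin ligase for receptors, rose by 3.80 to 4.17, from at most 0.681 CPM to 6.60 to 15.7 CPM, and Numb, an inhibitor of the receptors, fell by 0.34, 0.25 and 0.35. The Numb call in the Tim-4-CD4+ subset was lost in 4 of 22 alternatives, and its log2 fold change there was -0.16 without Tim-4-CD4+ replicate 3.

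In the nucleus, more corepressors were lower than higher. Of the 13 corepressor genes, 9, 9 and 10 fell and 3 rose in each subset. Of all genes, 28.1%, 30.7% and 31.3% fell and 37.3%, 39.1% and 39.5% rose. Tle3 fell by 1.30 to 1.80 and Spen by 1.08 to 1.48 on the log2 scale. Of the genes that rose, Tle2 rose by 3.27 to 4.17 and Tle1 by 0.88 to 1.13. Among coactivators, Maml2 rose by 2.21 to 2.54 and Maml1 fell by 0.58 to 0.81 and Snw1 by 0.30, 0.33 and 0.37. Without monocyte replicate 1, Snw1 was at -0.17, -0.20 and -0.24, and its calls in both Tim-4- subsets were lost (adjusted p = 0.11 and 0.061).

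Besides Hes1, 6 genes listed as targets were tested, Nrarp and genes of the Hes and Hey families. Of these, 4, 3 and 4 rose and 2 fell, and being listed does not show that Notch induces a gene. Of all genes, 37.3%, 39.1% and 39.5% rose and 28.1%, 30.7% and 31.3% fell. Nrarp, a target that feeds back on the Notch complex, fell from 6.12 to 8.96 CPM in monocytes to 0.430 to 1.93 CPM in macrophages, by 2.85 ± 0.36, 3.35 ± 0.36 and 2.53 ± 0.35 on the log2 scale (adjusted p = 2.5e-06, 3.7e-07 and 6.1e-06). Hes6, a gene of the Hes family, fell by 0.76 to 1.09. Hes7 rose by 2.25, 2.25 and 2.81, to at most 1.83 CPM. Hey1 and Hey2, targets known from endothelium and heart, were near 0 in monocytes, with 1, 6 and 0 counts of Hey1 and 8, 0 and 1 counts of Hey2 in the 3 libraries. Hey1 was called higher in all 3 subsets, by 3.80 ± 1.05, 3.42 ± 1.04 and 4.56 ± 1.06 (SE; adjusted p = 0.0044, 0.0078 and 0.0011). Hey2 was called higher in the CD4- subset, by 2.65 ± 0.85 (adjusted p = 0.011), and in Tim-4+CD4+ macrophages, by 3.30 ± 0.84 (adjusted p = 0.0022), and its value in the Tim-4-CD4+ subset was 0.41 ± 0.89 (adjusted p = 0.70). The endothelial markers summed to 27.4 to 76.6, 24.2 to 44.8 and 60.0 to 91.9 CPM in the 3 subsets and to 52.9 to 88.3 CPM in monocytes. Of the monocyte sum, Flt1 gave 52.0 to 87.0 CPM, and every other endothelial marker was higher in each macrophage library than in monocytes. The part of these markers in the Hey1 and Hey2 levels was not tested. Heyl had 1 count in all monocyte libraries and 38 to 141 counts in the subsets, 56.7 times its monocyte level in Tim-4-CD4- macrophages with a 95% counting interval of 9.58 to 2300. Among Deltex genes that were not members, Dtx1 had 2 counts in monocytes and 407 to 1004 in the subsets, at 1.24 to 4.21 CPM, whereas Dtx3l fell by 0.79 to 1.03 and Dtx2 by 0.27 and 0.35 in both Tim-4- subsets. The Dtx2 call in the CD4- subset (adjusted p = 0.044) was lost in 18 of 22 alternatives.

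**Figure D5:**
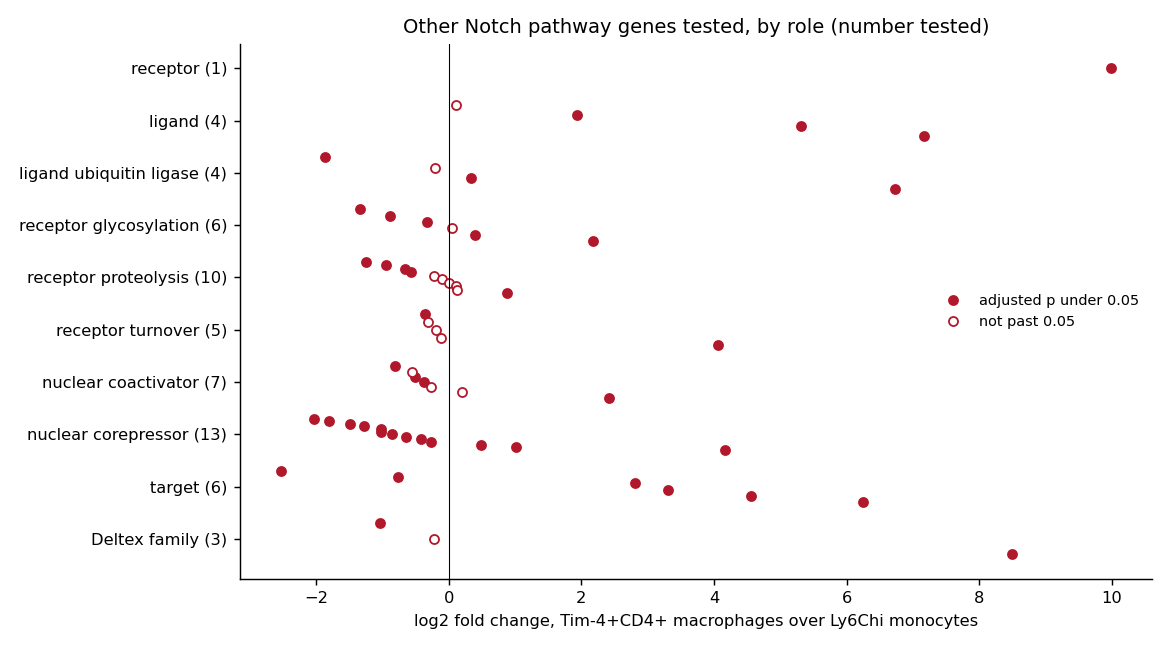
Other Notch pathway genes by role in Tim-4+CD4+ macrophages compared with Ly6Chi monocytes. Each point is 1 of the 59 genes tested, placed by its fitted log2 fold change, filled where the adjusted p was under 0.05. The value for Notch3, which had no counts in monocytes, depends on the prior count. As filled points below 0 lie 10 of 13 corepressors, where 31.3% of all genes were called lower.

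Between macrophage subsets, few other pathway genes differed. Tim-4-CD4+ macrophages differed from the CD4- subset in 3 of the 59 genes, all lower, where 5.53% of all genes were lower and 4.52% higher. These were Lfng (log2 fold change -0.75 ± 0.13, adjusted p = 0.0012), Furin (-0.37 ± 0.09, adjusted p = 0.019) and the corepressor Ctbp2 (-0.40 ± 0.11, adjusted p = 0.028). Furin and Ctbp2 lost significance when single libraries of either subset were left out, with adjusted p up to 0.073 and 0.096.

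Tim-4+CD4+ macrophages differed from the CD4- subset in 10 of the 59 genes, 3 higher and 7 lower, where 11.3% of all genes were higher and 11.9% lower. Lfng, Furin and Ctbp2 were again lower, by 0.66 ± 0.13, 0.45 ± 0.09 and 0.64 ± 0.11 on the log2 scale (adjusted p = 0.0013, 0.0023 and 0.00037). Lfng was at 86.4, 104, 105 and 90.0 CPM in Tim-4-CD4- macrophages, and at 49.0 to 70.0 CPM in the 8 libraries of the CD4+ subsets, so Tim-4-CD4- libraries lay between the CD4+ subsets and the monocytes, which were at 128 to 174 CPM. Monocyte markers had the same order, at 602.9 to 876.6 CPM in sum in the CD4- subset and at 49.4 to 216.9 CPM in the CD4+ subsets, and their part in the Lfng level was not tested. Neurl1b fell by 0.99 ± 0.20, Tle3 by 0.51 ± 0.11 and Kat2b by 0.43 ± 0.12. The genes that rose were Tle2 (0.90 ± 0.14, adjusted p = 0.00022), Mib2, a ubiquitin ligase for ligands (0.39 ± 0.09, adjusted p = 0.0061), and Maml3 (0.43 ± 0.15, adjusted p = 0.047). Aph1a fell by 0.27 ± 0.09 (adjusted p = 0.045), and this call was lost in 20 of 22 alternatives.

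Between the CD4+ subsets, 2 of the 59 genes were called, both higher in Tim-4+CD4+ macrophages, where 2.07% of all genes were higher and 1.34% lower. Tle2 was at 17.3, 13.1, 11.1 and 12.6 CPM in the Tim-4+ subset and at 7.33, 9.26, 9.95 and 9.15 CPM in the other CD4+ subset (log2 fold change 0.60 ± 0.14, adjusted p = 0.024). The 2 subsets did not overlap, and the call was lost in 6 of 22 alternatives, among them those that left out replicate 1 of the Tim-4+ subset or replicate 1, 2 or 4 of Tim-4-CD4+ macrophages. Hey2 was at 0.204, 0.301, 0.289 and 0.348 CPM in the Tim-4+ subset and at 0.0183 to 0.0506 CPM in the other CD4+ subset (log2 fold change 2.89 ± 0.75, adjusted p = 0.044). The endothelial sum moved with it, at 60.0 to 91.9 CPM against 24.2 to 44.8 CPM, of which Esam gave 19.7 to 33.7 against 8.90 to 9.81 CPM. Only Esam, Cldn5 and Sox17 did not overlap between the 2 subsets, and the other endothelial markers, among them Cdh5, Kdr, Plvap and Tie1, did. The part of these markers in the Hey2 difference was not tested. The Hey2 call was lost in 15 of 21 alternatives, among them without any 1 of the 8 libraries compared.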

How the data were processed

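RNA was sequenced from 15 libraries (3 of blood monocytes and 4 of each macrophage subset) made with a stranded TruSeq kit. Per the labels and the study's methods, the authors trimmed reads with Trimmomatic 0.36, aligned them with STAR to GRCm38 and deposited raw counts per gene from HTSeq 0.6.1p1 with GENCODE annotation; the strand setting of the counting is not given in the sources used here. The 15 columns of values that the authors scaled were not used.

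From the deposited counts, genes were filtered with filterByExpr by population, scaled by TMM and tested with the quasi-likelihood test of edgeR 4.0.16 in R 4.3.3, in 1 fit over all 15 libraries with 6 contrasts and Benjamini-Hochberg adjustment over 15802 genes (threshold 0.05). The steps were tested on simulated data. Library totals of 39388763 to 151510641 counts set the precision; counting intervals (95%) and floors (3 counts) cover counting error only. Replicates of a population were separate sorts of pooled mice.

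The members and the gene and marker lists were chosen with earlier results of these data known. The genes named were all 8 members, pathway genes called between macrophage subsets, up to 3 pathway genes per role and direction with the largest change against monocytes and no overlap of libraries, and the 3 genes most correlated with each member over the 12 macrophage libraries (mean of at least 1 CPM). Of these, 2 pathway genes are counted but not reported here by name. Exon lengths and positions came from a GENCODE annotation of GRCm38, which may differ from the authors' release in detail, and promoters from RefSeq (GRCm38.p6); Hes1, Dtx3 and Dtx4 were not matched there, and proteins were not analysed here. Alternatives were DESeq2 1.42.0, RLE scaling, other filters, fits of 2 populations, a replicate block and leaving out each library.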

Additional observations from a re-analysis of the deposited data

Results flagged for a closer look

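Of 141 groups of 4 libraries examined for the 8 members and the named pathway genes, 9 had a library whose gap to the nearest of the others passed Dixon's 95% critical value for 4 samples, where chance gives about 1 in 20. None of the 9 was a member. In Tim-4+CD4+ macrophages, Hes6 was at 22.32 CPM in replicate 1 against 14.7 to 15.1 CPM in the others, and Nedd4 was at 8.184 CPM in the same library against 9.73 to 10.03 CPM. Replicate 4 had Notch3 at 2.985 CPM against 1.13 to 1.24 CPM, replicate 2 had Dll4 at 0.482 CPM against 0.932 to 1.00 CPM, and replicate 3 had Tle1 at 44.78 CPM against 43.1 to 43.4 CPM.

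In Tim-4-CD4+ macrophages, Notch3 was at 0.03664 CPM in replicate 1, which was 2 counts, against 0.652 to 0.716 CPM, and Eogt was at 39.45 CPM in replicate 3 against 49.2 to 51.0 CPM. In Tim-4-CD4- macrophages, Maml2 was at 33.57 CPM in replicate 1 against 29.4 to 30.02 CPM, and Kat2b was at 72.01 CPM in replicate 3 against 77.8 to 78.6 CPM.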

How the results depend on the processing

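Under the 22 alternatives, no fold change of the 8 members changed direction where it was called or moved by as much as the spread between replicates, but the number of members called was 1 to 5 between the CD4- and the Tim-4-CD4+ subset (2 in the fit reported; 3 with DESeq2), 3 to 5 between the CD4- and the Tim-4+ subset (4), and 0 to 1 between the CD4+ subsets (0; 1 with DESeq2). The numbers of pathway genes called against monocytes (42, 41 and 44) and between the Tim-4+ and the CD4- subset (10) stayed within 1.5 times their value; without single libraries the last was 8 to 14. Between the Tim-4-CD4+ and the CD4- subset, 3 genes were called, 5 with DESeq2, 6 when only these 2 populations were fitted, and 1 to 5 without single libraries (1 without Tim-4-CD4- replicate 2, 5 without Tim-4-CD4+ replicate 3 or Tim-4+CD4+ replicate 1). Between the CD4+ subsets, 2 genes were called, 1 with all genes of at least 1 count, 1 with a mean of at least 1 CPM, 1 when only these 2 populations were fitted, and 0 to 2 without single libraries (0 without Tim-4+CD4+ replicate 1 or Tim-4-CD4+ replicate 1, 2 or 4). The cause was not tested. The replicate numbers of the titles and of the sample descriptions differ. Deviations of same-numbered libraries correlated at -0.12 to 0.13 and at -0.089 to 0.16 over 21 pairs each, pairs with monocytes included. Low correlations cannot show that libraries came from different sorts, so whether either number pairs the samples is not known. With a replicate block by title number, 0 genes were called between the CD4+ subsets, and 1 with a replicate block by description number. The median log2 fold change of all genes against monocytes was 0.08 to 0.11 with TMM and up to 0.15 with RLE scaling. Depth limits Hey1, Hey2, Heyl, Dll4, Dtx1 and Notch3, with under 10 counts per monocyte library.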
